A study of Lotus japonicus with 16 samples.

Results

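The response of Lotus japonicus roots to low phosphate at the high temperature is described here through the 815 genes that the authors list for it. Their table holds every gene they called up-regulated or down-regulated between the low-P and the sufficient-P roots of the warm chamber. All 815 rows were taken. The 4 tables of the series hold 3958 genes in all. Lotus japonicus is a model legume, and the plants were of the accession MG-20. They grew in hydroponics for 3 weeks of treatment, with 16 h of light and 8 h of dark.

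The compared groups were roots at 6.4 µM phosphate (-P-HT) and roots at 64 µM phosphate (+P-HT), both in a chamber held at 30 °C in the light and 29 °C in the dark. Each group had 2 libraries of whole roots, and each replicate was a pool of 3 plants, from 5 replicates grown per treatment. The same 2 phosphate supplies were also compared in roots at the favorable temperature, 23 °C in the light and 22 °C in the dark, (-P-FT and +P-FT), again with 2 libraries a group. The labels name no transgene, no mutant and no rhizobial or fungal partner. The root table is a bulk measurement, so fewer cells of a type and less RNA per cell cannot be told apart. The labelled tissue could not be checked against marker genes, because the gene table used gives these identifiers a locus symbol only, with no function.

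Phosphorus enters the root as inorganic phosphate and is among the nutrients that most often limit plant growth. In Arabidopsis, a shortage is sensed through inositol pyrophosphates and SPX proteins, which restrain the transcription factor PHR1 when phosphate is ample. Released PHR1 raises genes for phosphate transporters, secreted acid phosphatases, phospholipid replacement and further signalling. None of the genes below can be placed in that pathway from the sources used here, and no role is given to any of them.

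Of the 815 genes, 456 rose and 359 fell at low P. The whole list was 4.05% of the 20129 genes behind the authors' adjustment, with 2.27% that rose and 1.78% that fell. "Rose" means higher at low P, which is the reading given here to the authors' "up-regulated". The favorable-temperature root table was read in the same way, and in the shoot tables "up-regulated" was read as higher at the high temperature. The tables do not name their reference groups, so all directions depend on these readings. All 815 genes are protein-coding in the gene table. The comparison and its p-values are the authors' DESeq2 Wald test on 2 libraries against 2, with no values per library. The p-values thus rest on the authors' fitted spread between these few pools, with any smoothing across genes. Read depth is unknown.

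Most of these changes were moderate. The log2 fold change, called log2 fold from here on, had a median of 1.58 over the rises and of -1.57 over the falls in the authors' deposited table. The quartiles of the rises were 1.21 and 2.21, and those of the falls -2.12 and -1.24. Under 4-fold changes made up 68.6% of the rises and 70.5% of the falls. The large changes leaned towards rises, with 61 rises and 35 falls of at least 8-fold, and 35 rises and 9 falls of at least 16-fold. Of the 100 genes with the largest absolute Wald statistic, the fold change over its error, 77 rose and 23 fell.

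Rises and falls started from different median levels, and splitting genes by direction produces part of this by itself. The level of a gene in each group was derived from its deposited base mean and fold change and is given in normalised counts. The median gene that rose went from 130 normalised counts at sufficient P to a median of 460 at low P. The median gene that fell went from 575 normalised counts to 181. The median base mean, taken over both groups, was 304 normalised counts for rises and 395 for falls. At least 1000 normalised counts in the higher group were reached by 125 of the 456 rises and by 145 of the 359 falls. These are levels per gene and not per length, so they are not compared between single genes.

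**Figure D1:**
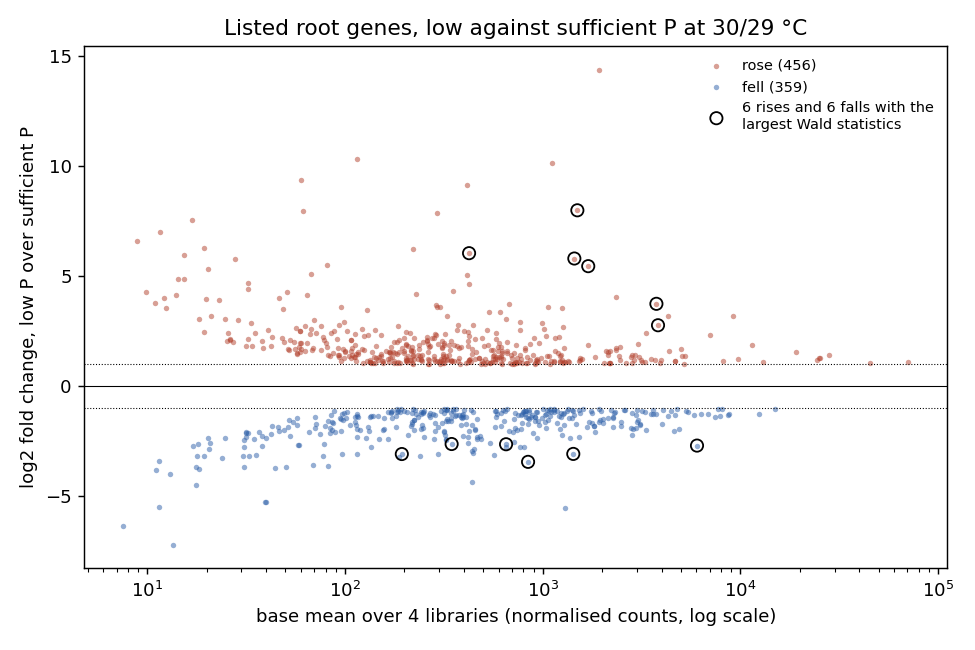
Each point is 1 of the 815 listed root genes, with its base mean over the 4 libraries (normalised counts, log axis) against its log2 fold at low P over sufficient P. Dotted lines mark the authors' fold limit of 1 on the log2 scale, red points rose, blue points fell, and circles mark the 12 genes with the largest Wald statistics. Folds beyond 10 on the log2 scale are few and lie among the rises, and the widest falls lie at low base means.

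The authors' limits set the edge of the list. The smallest listed absolute log2 fold was 1.00 (LOC130717831, SE 0.29) and the largest adjusted p was 0.0499 (LOC130735685, DESeq2), both in the authors' deposited table. Values just outside the limits are not listed. The fold limit was applied to the estimate and not to its error. A 95% interval, the fold plus or minus 1.96 deposited standard errors, lay wholly beyond 2-fold for 320 genes, 186 that rose and 134 that fell. It lay wholly beyond 4-fold for 58 rises and 24 falls.

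Replicate spread was read back from the deposited errors. For the 645 genes whose base mean was 100 or more, the errors correspond to a coefficient of variation between replicates of 21.1% (median). The quartiles were 18.2% and 24.5%. Genes that fell had a median of 22.3% and genes that rose had 20.3%. This spread takes the libraries as equally deep and includes any smoothing of the spread across genes in the authors' fit. It covers listed genes only, whose errors had to be small against their folds.

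The 6 strongest rises by Wald statistic all ended between 837 and 7004 normalised counts. LOC130738722 had the largest statistic of the list and rose from 50.9 to 2843 normalised counts, a log2 fold of 5.80 (SE 0.26, adjusted p by DESeq2 2.09e-105) in the authors' deposited table. LOC130716125 went from 11.7 to 2986 normalised counts, which is 7.99 (SE 0.41) in log2 units (the authors' deposited table), the widest of the 6. LOC130714506 went from 75.8 to 3327 normalised counts (log2 fold 5.45, SE 0.28, in the authors' deposited table). Each of these 3 genes had under 100 normalised counts at sufficient P.

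LOC130711540 rose from 12.7 to 837 normalised counts, and the authors' deposited table puts its log2 fold at 6.04 (SE 0.40). LOC130746590 and LOC130747851 also rose. The former went from 522 to 7004 normalised counts (log2 fold 3.74, SE 0.25, in the authors' deposited table). The latter went from 980 to 6689 normalised counts (2.77, SE 0.19, in the authors' deposited table), a smaller fold with one of the smaller errors.

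The 6 strongest falls were of 6.16-fold to 10.8-fold. LOC130720333 dropped from 2555 to 304 normalised counts, a log2 fold of -3.07 (SE 0.21, adjusted p by DESeq2 5.53e-46) in the authors' deposited table. LOC130732159 dropped from 1545 to 143 normalised counts, with -3.43 (SE 0.23) in log2 units (the authors' deposited table). LOC130724377 dropped from 10460 to 1615 normalised counts (-2.69, SE 0.23, in the authors' deposited table). Levels of these 3 genes were 8.42, 10.8 and 6.47 times as high at sufficient P as at low P.

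LOC130746616 dropped from 347 to 41.1 normalised counts, with a log2 fold of -3.08 (SE 0.32) in the authors' deposited table. LOC130743062 dropped from 1126 to 181 normalised counts (-2.63, SE 0.29, in the authors' deposited table). LOC130748945 dropped from 597 to 96.8 normalised counts, with almost the same log2 fold, -2.62 (SE 0.29), in the authors' deposited table.

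**Figure D2:**
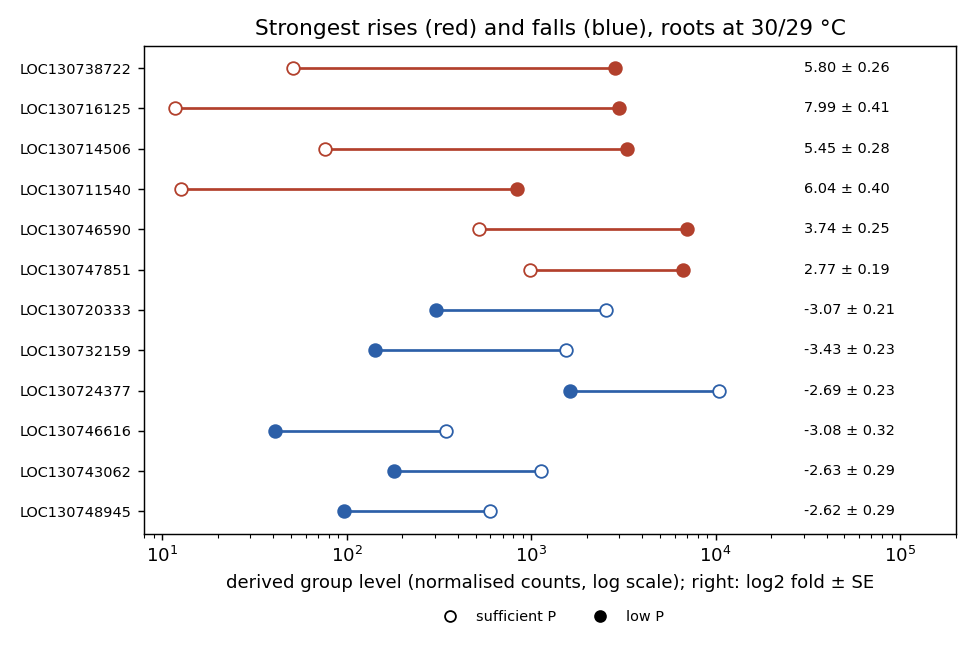
Derived levels (normalised counts, log axis) of the 6 rises and 6 falls with the largest Wald statistics, with open circles for sufficient P, filled circles for low P, and the authors' log2 fold ± SE at the right. The rises reach from 2.77 to 7.99 on the log2 scale, while the 6 falls lie between -3.43 and -2.62.

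The widest folds of the list come from genes close to undetected in one group. In 16 genes (13 rises, 3 falls) the group with less was fitted under 1 normalised count. These fitted levels were not spread evenly. In 8 genes they lay between 0.180 and 0.184 normalised counts, in 4 genes between 0.490 and 0.507, and in the other 4 between 0.963 and 0.985. The standard errors of these 16 folds ran from 1.19 to 1.82 on the log2 scale, against a median of 0.34 over all 815 genes. Such a fold is a fitted value and no measured ratio.

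Only 4 of the 16 reached 100 normalised counts in their higher group, and all 4 rose. LOC130749463 reached 3874 normalised counts at low P and LOC130746340 reached 229, and these had the widest rises. The authors' deposited table gives them log2 folds of 14.38 (SE 1.48) and 10.30 (SE 1.49). LOC130730757 and LOC130723606 had the widest falls, from 26.9 and 14.99 normalised counts at sufficient P. The authors' deposited table puts their log2 folds at -7.19 (SE 1.79) and -6.36 (SE 1.82). Neither of these falls was listed at the favorable temperature, whereas both of the rises were.

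The rise and the fall with the largest base mean, named after their values were seen, both changed little more than 2-fold. LOC130746504 went from 45036 to 95957 normalised counts, a log2 fold of 1.09 (SE 0.26, adjusted p by DESeq2 0.00163) in the authors' deposited table. LOC130731432 went from 20180 to 9903 normalised counts (-1.03, SE 0.24, in the authors' deposited table). The 95% intervals of both folds reached below the 2-fold limit on the log2 scale, to 0.57 for the rise and to -0.56 for the fall.

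Larger rises were more often listed at the favorable temperature too, as a description of the lists and without a test. The favorable-temperature root table lists 2045 genes, 10.1% of the 20175 tested there (4.67% rose and 5.46% fell). It holds 542 of the 815 genes, which is 66.5% of the high-temperature list and 26.5% of the favorable-temperature list. Among rises, 62.4% of the 210 genes with a log2 fold under 1.5 were listed there, 68.9% of the 103 from 1.5 to 2, 80.5% of the 82 from 2 to 3, and 83.6% of the 61 from 3 upwards. Among falls the shares in the same bands were 53.0% of 168, 69.4% of 85, 71.8% of 71 and 68.6% of 35. The share thus went up from band to band among rises and did not go up further among the widest falls. The widest falls were few and low in level, with a median base mean of 39.8 normalised counts against 252 in the band before. For rises these medians were 80.8 and 185. Of the 100 genes with the largest Wald statistics, 93 were listed at both temperatures.

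Of the 12 strongest rises and falls, 11 were listed at the favorable temperature, all in the same direction. LOC130716125 had a log2 fold of 8.21 (SE 0.43) there in the authors' deposited table, and LOC130714506 had 5.22 (SE 0.32). The difference from the high temperature was -0.22 on the log2 scale for LOC130716125 (95% interval -1.37 to 0.94) and 0.23 for LOC130714506 (-0.61 to 1.07). Errors of this size leave room for differences of over 2-fold. LOC130720333 fell more at the favorable temperature (-4.11, SE 0.32, in the authors' deposited table), and its difference of 1.03 (SE 0.38) did not pass adjustment over the 542 shared genes (adjusted p = 0.0859, normal test of the difference of 2 DESeq2 folds). LOC130738722 rose more at the favorable temperature (6.77, SE 0.39) and LOC130743062 fell less (-1.45, SE 0.51), both in the authors' deposited table. Their differences were -0.97 (95% interval before adjustment -1.89 to -0.04) and -1.18 (-2.33 to -0.03). For none of the 11 genes did the difference pass adjustment.

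Over all 542 shared genes the folds differed between temperatures for 34, or 6.27%. The 2 root tables share no library. Each difference was tested by dividing it by its combined standard error, with Benjamini-Hochberg adjustment over the 542 genes. A median gene's difference had a 95% half-width of 1.06 on the log2 scale, and the smallest difference that passed was 1.27. Genes enter this test only when both folds passed the authors' limits. The 34 include 4 genes with opposite directions, for which this entry rule nearly settles the outcome.

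Among the 316 genes that rose at both temperatures, the median log2 fold was 1.68 at the high and 2.12 at the favorable temperature in the authors' deposited tables. Folds differed for 19 of them, 18 with the smaller rise at the high temperature. Among the 222 genes that fell at both, the medians were -1.70 and -2.10, and folds differed for 11, each with the smaller fall at the high temperature. Errors also differed between the tables. The standard error was larger at the favorable temperature for 427 of the 542 genes (median ratio 1.18). Replicate spread over the 431 shared genes with a base mean of at least 100 in both was 20.7% at the high and 25.1% at the favorable temperature (medians). Only genes with errors small against their folds were listed. The smallest listed absolute Wald statistic was 3.01 at the high and 2.74 at the favorable temperature. The errors and spreads given here are thus those of listed genes and not of all genes. The part that these errors play in the smaller folds was not tested.

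**Figure D3:**
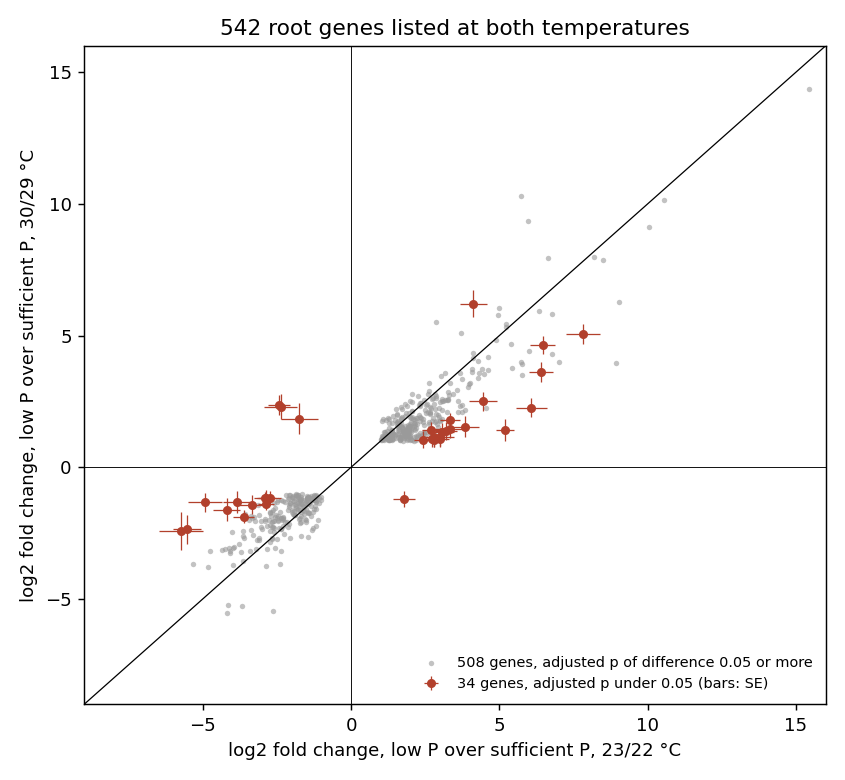
Each point is 1 of the 542 genes listed in both root tables, with its log2 fold at low P over sufficient P at 23/22 °C (x) and at 30/29 °C (y), and the line marks equal folds. The 34 red points, with bars of 1 SE, differ between temperatures at an adjusted p under 0.05, and most of them lie nearer to 0 at 30/29 °C.

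The 18 genes with a smaller rise at the high temperature had log2 folds of 2.44 to 7.83 at the favorable temperature and 1.02 to 5.07 at the high one. Their derived levels moved at both supplies. At sufficient P, 15 of the 18 had the higher level at the high temperature, with a median shift of 1.32 on the log2 scale. At low P, 15 of the 18 had the lower level at the high temperature, with a median shift of -0.59. The 11 genes with a smaller fall were the mirror image. Their level at sufficient P was lower at the high temperature in 10 of 11 (median shift -1.41), and their level at low P was higher in 10 of 11 (median shift 0.85). The 2 tables were normalised separately, so these shifts set levels across tables and were not tested. Over the 529 shared genes with every level at 1 normalised count or more, the median shifts were -0.08 at sufficient P and -0.26 at low P. Since the genes were picked for a smaller fold, opposite shifts at the 2 supplies follow at least in part from the choice. The larger shift was at sufficient P in 11 of the 18 genes and at low P in 7. Among the 11 genes it was at sufficient P in 7 and at low P in 4. Over the 529 genes the counts were 314 and 215.

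LOC130720785 had the largest test statistic among genes that went the same way. It had 484 normalised counts at sufficient P and 1296 at low P at the high temperature, against 50.3 and 1836 at the favorable one. Its log2 folds, taken from the authors' deposited tables, stood at 1.42 (SE 0.41) and 5.19 (SE 0.32), a difference of -3.77 (SE 0.52, adjusted p = 8.29e-11, normal test on DESeq2 folds). In shoots at sufficient P it rose at the high temperature as well, by a log2 fold of 3.25 (SE 0.24) in the authors' deposited table.

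LOC130724304 had nearly the same level at low P at both temperatures, 432 normalised counts at the high and 450 at the favorable one. Its level at sufficient P was 90.3 normalised counts at the high temperature and 6.68 at the favorable one. The rise was thus 2.26 (SE 0.35) against 6.07 (SE 0.52) in log2 units (the authors' deposited tables). LOC130747357 fell from 165 to 65.8 normalised counts at the high temperature and from 266 to 8.73 at the favorable one, so that its level at low P differed more than its level at sufficient P. Its log2 folds, taken from the authors' deposited tables, stood at -1.33 (SE 0.36) and -4.93 (SE 0.57).

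The remaining 3 of the 6 genes with the largest statistics for a difference changed in opposite directions. LOC130749820 went from 93.1 to 478 normalised counts at the high temperature and from 564 to 104 at the favorable one. LOC130747247 went from 42.0 to 207 normalised counts at the high temperature and from 128 to 24.7 at the favorable one. LOC130745279 did the reverse, from 306 to 132 normalised counts at the high temperature and from 94.3 to 323 at the favorable one. In LOC130749820 and LOC130745279 the level at sufficient P and high temperature was close to that at low P and favorable temperature, as far as separately normalised tables can be set side by side. A 4th gene, LOC130738620, changed from 13.7 to 49.5 normalised counts at the high temperature and from 72.8 to 21.8 at the favorable one. Genes with opposite listed signs pass the test of the difference almost by construction.

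LOC130748949, named after its values were seen, was the only one of the 30 genes that differed and went the same way to have the larger fold at the high temperature. It rose from 5.85 to 434 normalised counts there, and from 39.1 to 679 at the favorable temperature. The log2 folds, taken from the authors' deposited tables, stood at 6.21 (SE 0.52) and 4.12 (SE 0.46), a difference of 2.10 (SE 0.69, adjusted p = 0.0399, normal test on DESeq2 folds).

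**Figure D4:**
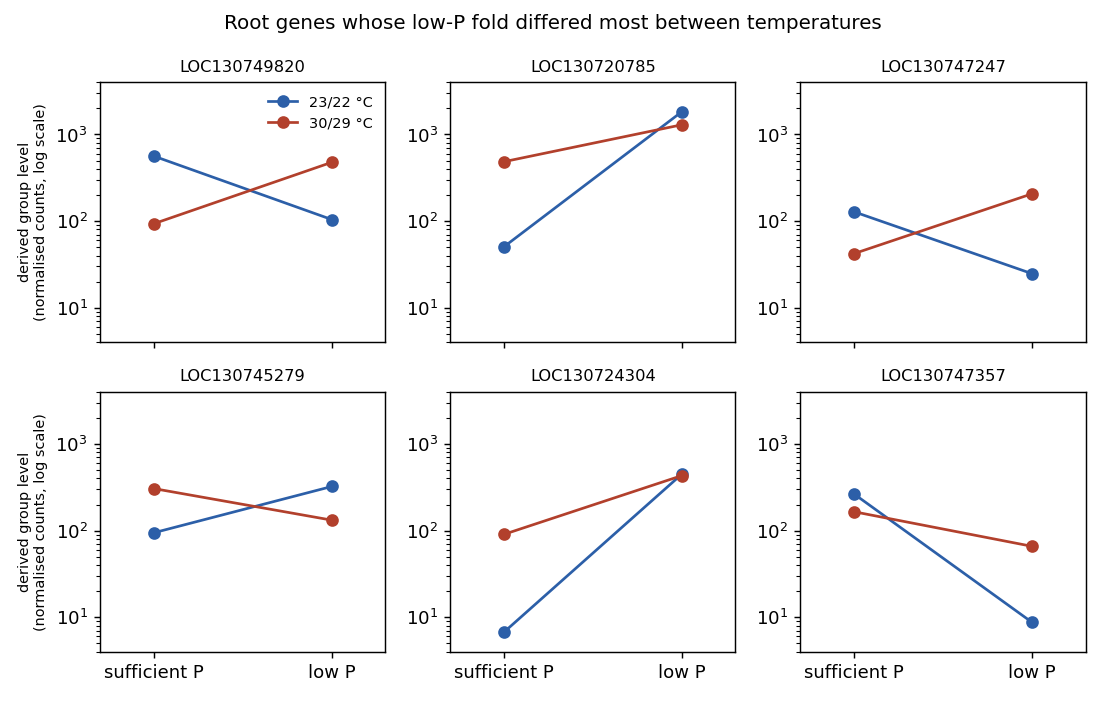
Derived levels (normalised counts, log axis) at sufficient and low P for the 6 genes with the largest statistics for a difference of folds, at 23/22 °C (blue) and 30/29 °C (red). LOC130749820, LOC130747247 and LOC130745279 cross over, and in LOC130720785 and LOC130724304 the temperatures differ most at sufficient P. The tables behind the 2 colours were normalised separately.

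The 273 genes listed at the high temperature only were evenly divided, with 137 that rose and 136 that fell. Their changes were smaller, with a median absolute log2 fold of 1.40 against 1.69 for the 542 shared genes. Their median base mean was also lower, 268 normalised counts against 376. At least 4-fold changes were reached by 57 of them (20.9%) and by 192 shared genes (35.4%). Absence from the favorable-temperature table does not show a different response, since the fold there may have been just under 2-fold or too imprecise, or the gene not tested.

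For 26 of the 273, a fold of equal size at the favorable temperature would have been listed there unless its standard error was over 2 times that at the high temperature. The smallest absolute Wald statistic in the favorable-temperature table, 2.74, gives this limit. How large the errors of these genes were there is not known. No test of the difference is possible for these 26 genes.

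The strongest genes of this group, 3 in each direction, are named after their values were seen. LOC130732159, also the second of the 6 strongest falls above, would have needed a standard error over 1.25 to stay unlisted at an equal fold. LOC130732007 dropped from 819 to 158 normalised counts and LOC130731623 from 923 to 157. Their log2 folds, taken from the authors' deposited table, stood at -2.38 (SE 0.29) and -2.56 (SE 0.39).

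Among rises listed at the high temperature only, LOC130730644 went from 176 to 811 normalised counts, a log2 fold of 2.21 (SE 0.24) in the authors' deposited table. LOC130745618 went from 265 to 1055 normalised counts (1.99, SE 0.23, in the authors' deposited table), and LOC130746189 from 161 to 677 (2.07, SE 0.28, in the authors' deposited table). All 3 were close to a 4-fold rise.

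A further feature shared by some of the genes is their place next to each other. In the order of protein-coding genes of the RefSeq assembly LjGifu_v1.2, 66 of the 815 genes (8.10%) had a listed gene as next neighbour. Among the 31897 protein-coding genes that are not listed, 4.80% had a listed neighbour. These include genes that the authors did not test, so the shares are not of matched genes, and their difference was not tested. The 66 genes form 32 runs, 30 of 2 genes and 2 of 3 genes. In 10 runs all genes rose, in 15 all fell, and 7 were mixed. The assembly is named for Gifu while the plants were MG-20, so gene order in the plants used was not checked. Neighbours may be copies of each other that share reads. The processing notes name RSEM 1.3.3 without its settings, and how such reads were divided was not checked. Folds within a run may therefore not be independent.

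The run with the strongest changes holds LOC130746589, LOC130746591 and LOC130746590, in this order. They rose from 32.7 to 815, from 45.8 to 561 and from 522 to 7004 normalised counts. Their log2 folds, taken from the authors' deposited table, stood at 4.64 (SE 0.34), 3.61 (SE 0.37) and 3.74 (SE 0.25). At the favorable temperature the first 2 rose more, and the authors' deposited table gives them log2 folds of 6.46 (SE 0.43) and 6.42 (SE 0.41). Those differences passed the test (adjusted p = 0.0186 for LOC130746589 and 3.07e-05 for LOC130746591, normal test on DESeq2 folds). The difference for LOC130746590 was -0.32 (95% interval -1.16 to 0.52) and did not pass.

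The other run of 3 genes fell. LOC130724641 dropped from 497 to 165 normalised counts, LOC130723442 from 137 to 50.5 and LOC130723472 from 354 to 90.4. Their log2 folds lay between -1.97 and -1.44 in the authors' deposited table. Another pair of falling neighbours was LOC130712139, from 1399 to 210 normalised counts, and LOC130712138, from 4416 to 1175.

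The widest pair in opposite directions was LOC130723587, which rose from 338 to 2194 normalised counts, beside LOC130723592, which dropped from 1265 to 481. Their log2 folds, taken from the authors' deposited table, stood at 2.70 (SE 0.23) and -1.39 (SE 0.21). Among pairs that rose together, LOC130730213 went from 45.3 to 542 normalised counts and its neighbour LOC130730212 from 120 to 503. Their log2 folds, taken from the authors' deposited table, stood at 3.58 (SE 0.31) and 2.07 (SE 0.39).

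**Figure D5:**
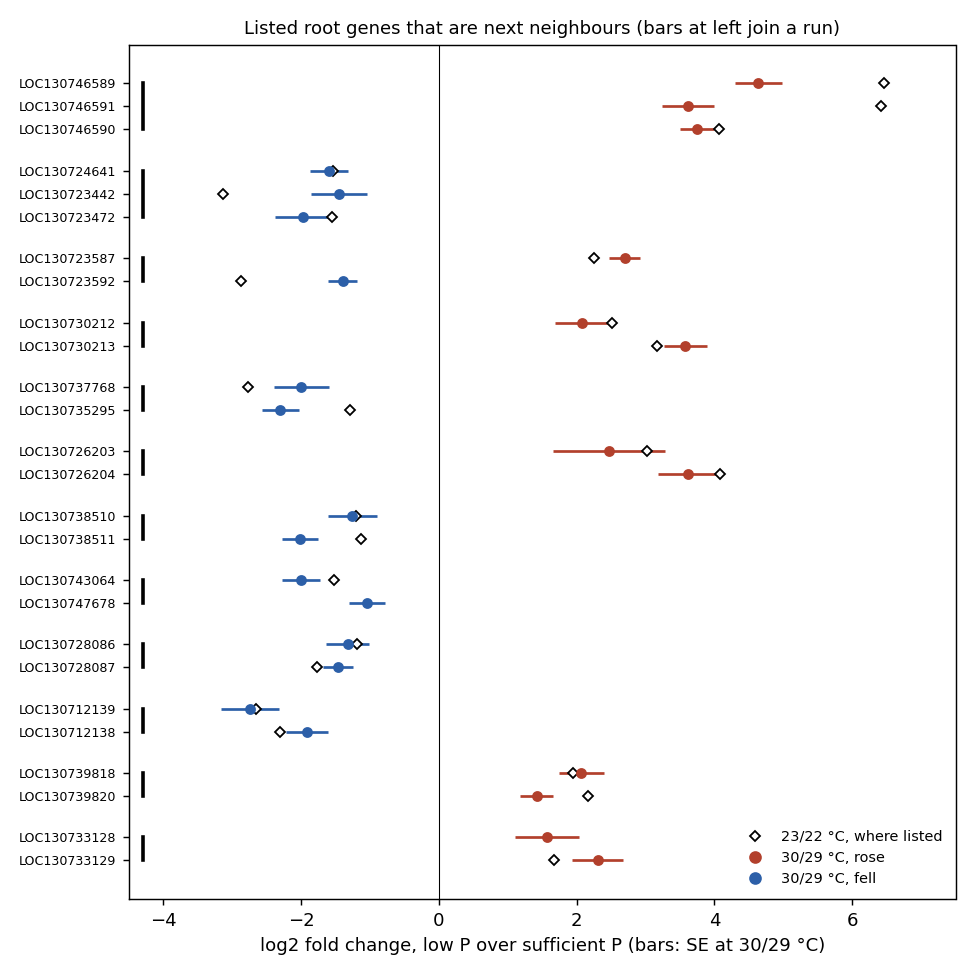
Log2 fold changes at low P over sufficient P in roots at 30/29 °C (circles with bars of 1 SE; red rose, blue fell) for the first 12 of the 32 runs of neighbouring listed genes, ordered by run length and largest Wald statistic, with diamonds for 23/22 °C where listed. Of these 12 runs, only that of LOC130723587 and LOC130723592 has both directions.

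In shoots, the series compares the temperatures rather than the phosphate supplies, so the contrasts are of different kinds, and each shoot table shares 1 growth condition, though no library, with the high-temperature root table. The low-P shoot table lists 851 genes (4.16% of those tested there, with 2.43% that fell). It holds 92 of the 456 root rises, of which 19 were higher and 73 lower in shoots at the high temperature. It holds 33 of the 359 root falls, of which 14 were lower and 19 higher. Of the 6 strongest rises, LOC130716125 and LOC130714506 were listed for low-P shoots and were among the 73, at -1.21 (SE 0.23) and -1.10 (SE 0.29) in log2 units (the authors' deposited table). The shoot table at sufficient P lists 1667 genes (8.28% of those tested, with 4.51% that rose). It holds 61 of the root rises, of which 42 were higher and 19 lower in shoots at the high temperature. It holds 102 of the root falls, of which 39 were lower and 63 higher. Over rises and falls together, 81 genes had the same direction in that table and 82 the opposite one, against 33 and 92 in low-P shoots. These tallies were not tested, and their directions depend on the readings given above.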

How the data were processed

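Per the labels' protocols, libraries were strand-specific, made from poly(A)-selected RNA and read from both ends at 150 bp. Groups and replicate numbers came from the sample titles. Per the submitters' processing notes, the tools were DESeq2 1.44.0, RSEM 1.3.3, FastQC 0.14.0 and Trimmomatic 0.39.2. The sources used here state neither their settings nor the build and annotation.

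The authors deposited their own comparisons only, so no count per library was analysed and depth and its precision are unknown. Per the file headers, each row gives the base mean (mean of counts over size factors), the deposited log2 fold change and its standard error, the deposited Wald score, and its deposited p-value, raw and adjusted. These values replaced the count test planned for the case of counts.

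The number of genes tested is the adjusted p over the p of the top gene. Group levels follow from base mean and fold, and replicate spread from the squared error less the counting term. Folds were compared between temperatures by a normal test with Benjamini-Hochberg adjustment (scipy 1.17.1). The code was run on normal data simulated with the deposited errors. Such data check neither those errors nor the selection of genes listed at both temperatures. Members, lists and rules were chosen with earlier results of these data known. Named genes were the 6 rises and 6 falls with the largest Wald statistic, the 2 widest of each, and the 6 largest differences between temperatures. Planned gene lists, promoter motifs and protein signatures were not scored, since the gene table used here (LjGifu_v1.2, 815 of 815 identifiers matched) gives symbols and order only. Alternatives were stricter fold, level and p limits.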

Additional observations from a re-analysis of the deposited data

Results flagged for a closer look

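The low-P fold differed between the high and the favorable temperature for 34 of the 542 root genes listed at both, by the normal test of the difference of 2 DESeq2 folds with Benjamini-Hochberg adjustment. The log2 fold at the high temperature less that at the favorable one was 4.80 for LOC130749820, 4.67 for LOC130747247, 3.59 for LOC130738620 and -2.99 for LOC130745279, the 4 genes with opposite directions. For genes that went the same way it was -3.77 for LOC130720785 and -3.82 for LOC130724304, which rose less at the high temperature, and 3.60 for LOC130747357, which fell less. The difference was 2.10 for LOC130748949, which rose more at the high temperature. The test says little about the 4 genes with opposite directions. Being listed with opposite signs at the 2 temperatures all but ensures a pass, so nothing is drawn from their adjusted p.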

How the results depend on the processing

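No paired analysis was possible because only group comparisons were analysed, with no value for a single library; for the same reason no replicate was left out, and no other count tool or low-count filter was run. Promoter alternatives were not run, since no promoter was scored. Keeping only changes of at least 4-fold left 249 of the 815 genes (143 rises, 106 falls) and 10 of the 34 differing folds. It left 174 of the 542 shared genes when required at both temperatures, against 192 when required at the high temperature only. This limit removes 13 of the 18 smaller rises and 9 of the 11 smaller falls, which were picked for a small change at the high temperature. A Bonferroni limit over the 20129 genes tested left 304 genes (189 rises, 115 falls). Requiring the 95% interval to lie wholly past 2-fold, chosen after seeing the data, left 320 (186 rises, 134 falls). A Bonferroni limit over the 542 shared genes left 18 differing folds. Allowing 1 gene between neighbours brought the genes in runs from 66 to 125. Counts stayed within 1.5 times with a base mean of at least 100 (645 genes, 29 differing folds), a lower level of at least 1 normalised count (799 genes), an adjusted p under 0.01 (598 genes) and identical rows counted once (815 genes). Of the 31 named genes whose values were followed, 24 passed the stricter fold limit, 23 the Bonferroni limit and 28 the adjusted p of 0.01. Depth is unknown, so what it limits could not be given; with 2 libraries a group, the smallest difference between temperatures that passed was 1.27 on the log2 scale.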
